A study of Saccharomyces cerevisiae with 24 samples.

Results

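Described here are 8 budding yeast (Saccharomyces cerevisiae) genes of one-carbon and glycine metabolism: GCV1 (YDR019C), GCV2 (YMR189W), GCV3 (YAL044C), SHM1 (YBR263W), SHM2 (YLR058C), MTD1 (YKR080W), ADE3 (YGR204W) and MIS1 (YBR084W). They were chosen by name. Each was read by the 1 probe set that the platform annotation pairs with it, which makes 8 of 9335 probe sets and 8 of the 5656 genes tested. Messenger RNA was measured on 24 one-colour Affymetrix YG_S98 arrays in 2 MATa strains, both of which carry IFH1 with a 13myc tag and a TRP1 marker. In YSS89 this IFH1 stands under the upstream activating sequence of GAL1, marked with HIS3, which galactose induces. In YSS37, labelled wild type, the tagged IFH1 kept its own promoter. IFH1 encodes a coactivator of ribosomal protein genes. Log-phase cultures in YPLG medium received galactose to 2%, and YSS89 was sampled at 0, 20, 30, 40 and 60 min and YSS37 at 0, 30 and 60 min. The labels give these times without a unit, and minutes are assumed. Each of the 8 groups has 3 biological replicates, called a, b and c.

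The labels were checked first. IFH1 read 23.0, 21.7 and 34.6 in YSS89 at 0 min, 1355, 1305 and 1436 at 20 min and 557, 575 and 585 at 60 min, while the 9 YSS37 arrays read 15.9 to 41.6. The a-cell genes MFA1, MFA2, STE2, STE6 and BAR1 read 39.2 to 933 on the 24 arrays, the a-cell gene ASG7 read 0.5 to 17.2, and the alpha-cell genes MF(ALPHA)1, MF(ALPHA)2 and STE3 read 1.1 to 12.5. The alpha-cell gene SAG1 read 15.6 to 34.6. The instrument records show 4 hybridization rounds. Round 1 held 8 YSS37 arrays, the second 1 YSS37 array (60 min c) and 6 of YSS89, the third 7 of YSS89, and the fourth only YSS89 0 min b and c. On those 2 arrays the 25S rRNA control read 313 and 90.9, against 560 to 1056 on the other 22 arrays. The chip lot recorded for all 9 YSS37 arrays was recorded for no YSS89 array, although the entry of 5 YSS89 arrays differs from it in 1 digit. Round and recorded lot therefore cannot be told apart from strain in most comparisons between the strains. No culture without galactose was sampled over the hour, so galactose and time cannot be told apart either. As with any bulk culture, a change in every cell and a change in the share of cells that carry a transcript cannot be told apart.

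One-carbon metabolism moves single-carbon units on tetrahydrofolate for the synthesis of purines, thymidylate and methionine. The units come mainly from serine, split to glycine by the hydroxymethyltransferases Shm1 in mitochondria and Shm2 in the cytosol, and from glycine, broken down in mitochondria by the glycine cleavage complex. That complex is built of Gcv1, Gcv2, Gcv3 and Lpd1. The folate-bound units are then converted between oxidation states by the dehydrogenase Mtd1 and by the C1-tetrahydrofolate synthases Ade3 in the cytosol and Mis1 in mitochondria. In yeast the GCV genes are known as genes that glycine induces, and the transcription factor Bas1 is known to act at promoters of one-carbon and purine genes.

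After 60 min of galactose the genes of glycine cleavage and of the cytosolic Shm2 had fallen in YSS89, and those of the mitochondrial Shm1 and Mis1 had risen. In YSS89 at 60 min against 0 min, 8 of the 8 genes passed the test, limma's with Benjamini-Hochberg adjustment over all genes and a threshold of 0.05: GCV1, GCV2, GCV3, SHM2 and MTD1 fell, and SHM1, MIS1 and ADE3 rose. Of all genes tested 43.7% passed in that comparison, 23.9% higher and 19.8% lower. In YSS37 at 60 min 1 of the 8 passed, MIS1, which rose, where 41.6% of all genes passed, 21.1% higher and 20.5% lower. The median change of the 8 genes on the log2 scale was -0.79 in YSS89 and 0.19 in YSS37, beside 0.08 and 0.01 for all genes. The change in YSS89 minus that in YSS37 passed for 6 of the 8 genes at 60 min, 1 higher and 5 lower, where 13.9% of all genes did (5.45% higher and 8.42% lower), and its median was -1.01 for the 8 genes and 0.03 for all genes. The comparisons share the 0 min arrays of each strain. With the hybridization round as a block 2 of the 8 genes were higher and 5 lower in YSS89 at 60 min, where 1555 of 5656 genes passed. Throughout, intensities are the deposited ones, while differences and overlaps between groups are on the log2 scale after quantile normalization.

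**Figure D1:**
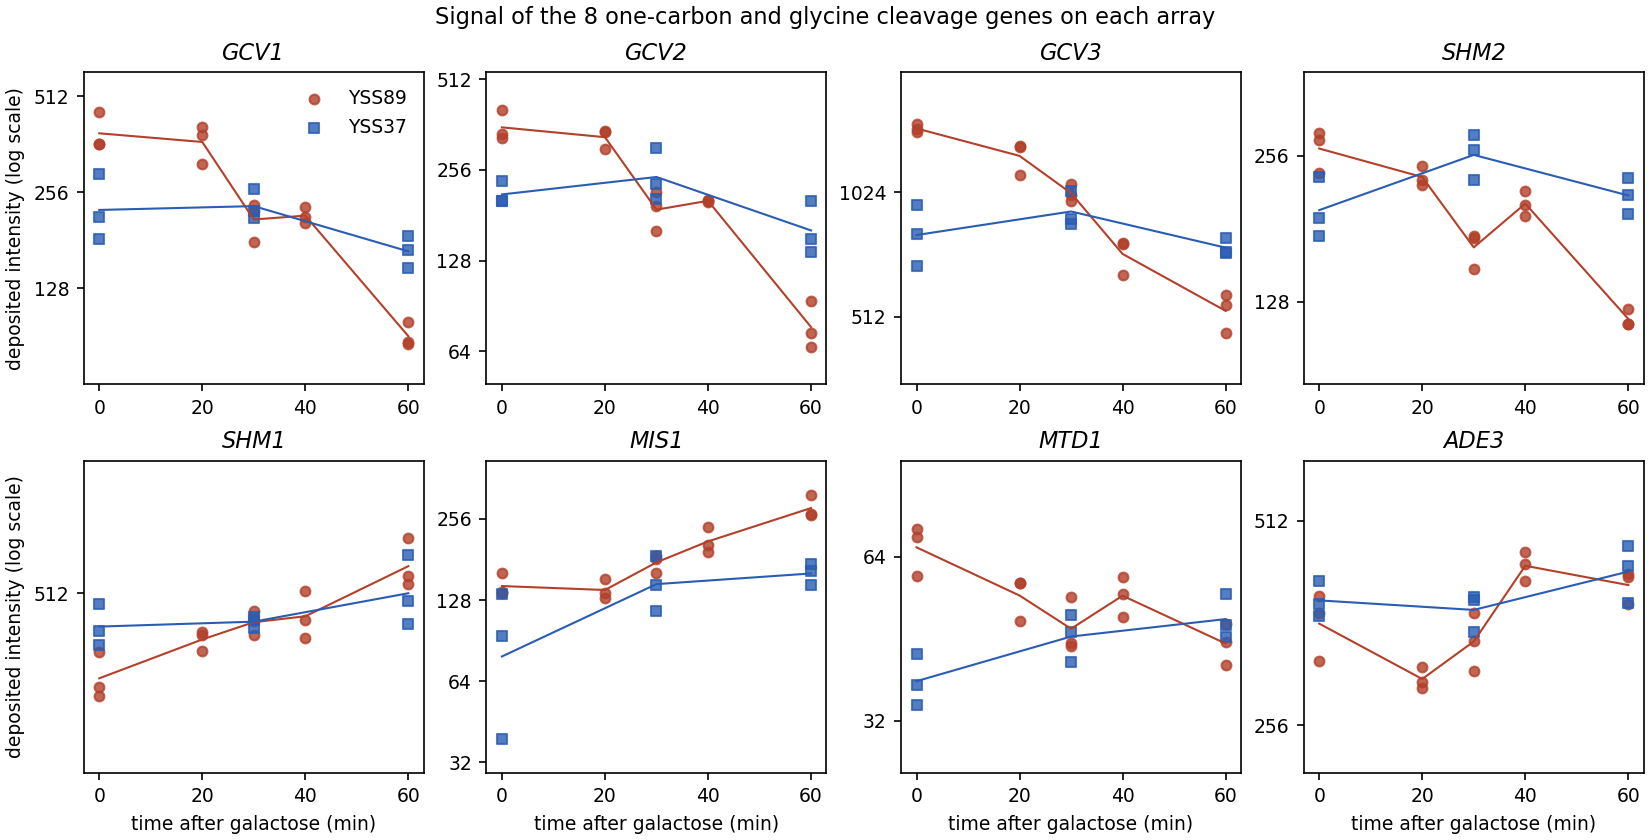
Deposited intensity (vertical axis, log scale) of each gene on each of the 24 arrays against time after galactose (horizontal axis, min); circles are YSS89, squares YSS37, and lines join the geometric means of the 3 arrays of a group. GCV1, GCV2 and GCV3 start higher in YSS89 than in YSS37 and end lower, SHM2 ends lower, and MIS1 climbs to 264 to 315 in YSS89 at 60 min, against 145 to 174 in YSS37.

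GCV1 encodes the aminomethyltransferase (T) subunit of the glycine cleavage complex. In YSS89 it read 457, 362 and 364 at 0 min, 314, 409.8 and 388 at 20 min, 178, 233 and 225 at 30 min, 214, 206 and 231 at 40 min and 85.5, 86.7 and 101 at 60 min. In YSS37 it read 292, 214 and 183 at 0 min, 224, 263 and 212 at 30 min and 169, 187 and 148 at 60 min. The 60 min arrays of YSS89 lay below every other array of the series, and its 0 and 20 min arrays above every YSS37 array. At 60 min against 0 min GCV1 fell by 2.12 on the log2 scale in YSS89 (SE 0.17, 4.35-fold lower, adjusted p = 6.63e-09). In YSS37 the same difference was -0.32 (95% interval -0.68 to 0.03, adjusted p = 0.137), and it passed without replicate c of YSS37 at 0 min (-0.48, adjusted p = 0.0357), on values as deposited (-0.43, adjusted p = 0.038) and with median centring (-0.60, adjusted p = 0.0056). The fall in YSS89 came in 2 steps: the 20 min arrays overlapped the 0 min arrays, the 30 and 40 min arrays stood together at a lower level, and the 60 min arrays stood lower again. Described without a test, the difference between neighbouring times was -0.72 at 30 against 20 min, -0.01 at 40 against 30 min and -1.36 at 60 against 40 min. In YSS37 it was -0.45 at 60 against 30 min, also without a test, and the arrays of these 2 times did not overlap.

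GCV2, for the glycine decarboxylase (P) subunit, moved almost as GCV1 did. Its signal in YSS89 was 404, 337 and 326 at 0 min, 300.4, 344 and 343 at 20 min, 161, 216 and 194 at 30 min, 202, 199.8 and 204 at 40 min and 73.5, 66.4 and 93.8 at 60 min. In YSS37 it was 234, 202 and 202 at 0 min, 204, 303 and 230.2 at 30 min and 151, 202 and 137 at 60 min. Again the lowest 3 arrays were those of YSS89 at 60 min, which overlapped no other group. GCV2 fell by 2.18 in YSS89 at 60 min (SE 0.17, 4.53-fold lower, adjusted p = 4.82e-09), and in YSS37 the difference was -0.29 (95% interval -0.65 to 0.06, adjusted p = 0.181), which passed with median centring (-0.57, adjusted p = 0.00865). The steps between neighbouring times in YSS89 were -0.71 at 30 against 20 min, 0.05 at 40 against 30 min and -1.50 at 60 against 40 min. In YSS37 the step at 60 against 30 min was -0.56, with overlapping arrays.

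GCV3 encodes the lipoate-carrying H subunit. In YSS89 it read 1454, 1432 and 1498 at 0 min, 1327, 1127 and 1318 at 20 min, 978, 1009.7 and 1071 at 30 min, 645, 767 and 773 at 40 min and 548, 468 and 576 at 60 min. In YSS37 it read 955, 678 and 811 at 0 min, 858, 1029 and 881 at 30 min and 729, 734 and 794 at 60 min. Unlike the plateau of GCV1 and GCV2, the YSS89 arrays of each time lay wholly below those of the time before, with steps of -0.66, -0.26, -0.40 and -0.47. At 60 min GCV3 had fallen by 1.79 in YSS89 (SE 0.13, 3.46-fold lower, adjusted p = 1.38e-09), whereas in YSS37 the difference was -0.07 (95% interval -0.34 to 0.19, adjusted p = 0.678). The YSS37 step at 60 against 30 min, described without a test, was -0.29, and the arrays of these 2 times did not overlap. GCV3 was the 1 gene of the 8 that passed in YSS89 at 20 min (-0.66, adjusted p = 0.00157), where 18% of all genes passed, 7.6% higher and 10.4% lower. That call rests on the scaling: the change was -0.22 (adjusted p = 0.231) on values as deposited and -0.05 (adjusted p = 0.836) with each array centred on its median. The ratio of 3' to 5' probe sets of ACT1, a sign of RNA quality, was 1.55 ± 0.03 (SD, n = 3) at 20 min and 1.27 ± 0.10 at 0 min in YSS89, and its part in the 20 min values was not tested.

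LPD1, not one of the 8 genes, encodes the dihydrolipoamide dehydrogenase (L) subunit, which the complex shares with pyruvate and 2-oxoglutarate dehydrogenase. It read 1095, 1074 and 1142 in YSS89 at 0 min, 605, 911 and 623 at 20 min, 768, 571 and 598 at 30 min, 488, 597 and 654 at 40 min and 641, 772 and 845 at 60 min. In YSS37 it read 1290.1, 1196 and 1352 at 0 min, 1108, 1213 and 1301 at 30 min and 1006, 1132 and 706 at 60 min. Unlike the 3 GCV genes, LPD1 had its lowest group mean in YSS89 at 40 min, where it had fallen by 1.09 (adjusted p = 8.72e-05). In order of level, however, its YSS89 groups at 40, 30, 20 and 60 min each overlapped the next, and no test compared these times. At 60 min LPD1 was down by 0.73 in YSS89 (adjusted p = 0.00343) and by 0.56 in YSS37 (adjusted p = 0.0207). The YSS37 call was lost in 5 of 17 other settings (-0.73 to -0.32), among them without replicate c at 0 or at 60 min. The response of LPD1 differed between the strains at 30 min (-0.78, adjusted p = 0.0466), a call lost in 15 of 23 other settings (-0.89 to -0.41 over all 23), most of them leaving out 1 array, and was not called different at 60 min (-0.18, 95% interval -0.73 to 0.38, adjusted p = 0.706), against -1.80 for GCV1, -1.89 for GCV2 and -1.72 for GCV3, whose responses passed the test (adjusted p = 6.12e-05, 3.63e-05 and 6.10e-06).

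**Figure D2:**
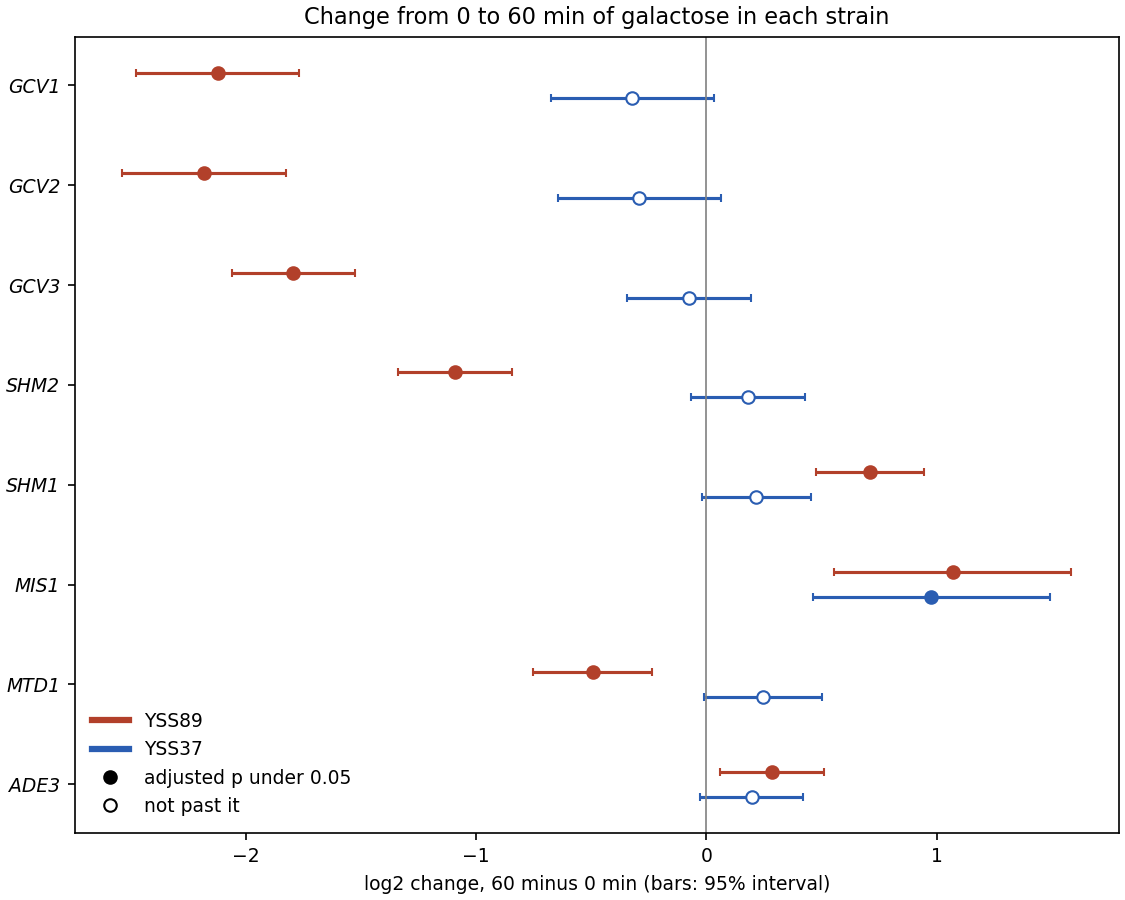
Change from 0 to 60 min of galactose on the log2 scale (horizontal axis) for each gene (rows), YSS89 above YSS37, with 95% intervals from the fit over all 24 arrays; filled points passed the test. GCV1, GCV2 and GCV3 lie between -2.18 and -1.79 in YSS89 and between -0.32 and -0.07 in YSS37, and MIS1 lies near 1 in both strains.

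SHM1 and SHM2 make the mitochondrial and the cytosolic form of serine hydroxymethyltransferase, and their transcripts moved in opposite directions in YSS89. SHM2 read 286, 237 and 276 at 0 min, 223, 228 and 244 at 20 min, 149.8, 175 and 174 at 30 min, 203, 193 and 217 at 40 min and 115, 115 and 124 at 60 min in that strain. In YSS37 SHM2 read 232, 175 and 191 at 0 min, 264, 283 and 229 at 30 min and 213, 231 and 194 at 60 min. The 60 min arrays of YSS89 were the lowest of the series for SHM2 and overlapped no other group, and the highest normalized group mean was that of YSS37 at 30 min. SHM2 fell by 1.09 in YSS89 at 60 min (SE 0.12, 2.13-fold lower, adjusted p = 4.29e-07), and by 0.49 at 30 min (adjusted p = 0.00233). At 40 min it stood between the values of 30 and 60 min on one side and 0 min on the other (-0.23 against 0 min, adjusted p = 0.117), and no 40 min array overlapped the 30 or the 60 min arrays. In YSS37 it was up by 0.45 at 30 min (adjusted p = 0.00695), a call lost with median centring (0.25, adjusted p = 0.117) and with only the groups compared in the fit, and showed 0.18 at 60 min (95% interval -0.07 to 0.43, adjusted p = 0.24). With MIS1 it made 2 of the 8 genes that rose in YSS37 at 30 min, when 26.9% of all genes passed, 14.4% higher and 12.4% lower.

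SHM1 read 410.4, 349 and 361 in YSS89 at 0 min, 442, 413 and 438 at 20 min, 479, 439 and 462 at 30 min, 517, 433 and 463 at 40 min and 631, 545 and 529 at 60 min. In YSS37 its signal was 421, 445 and 493 at 0 min, 463, 469 and 449 at 30 min and 456, 498 and 592 at 60 min. The YSS89 arrays at 60 min were all above those at 0 min, whereas the YSS37 arrays of those times overlapped. The YSS89 arrays at 20 min also lay above those at 0 min, by 0.29, which was not called (adjusted p = 0.0839). SHM1 rose by 0.71 in YSS89 at 60 min (SE 0.11, 1.64-fold, adjusted p = 4.29e-05), with 0.43 at 30 min (adjusted p = 0.00418) and 0.45 at 40 min (adjusted p = 0.00272) also called. These 2 calls were lost in 3 of 18 and 2 of 18 other settings, and without YSS89 0 min b and c the values were 0.27 (adjusted p = 0.192) and 0.30 (adjusted p = 0.156). In YSS37 at 60 min the difference was 0.22 (95% interval -0.02 to 0.45, adjusted p = 0.133). The difference of the responses at 60 min just passed, at 0.49 (adjusted p = 0.0438), and lost its call in 13 of 23 other settings, where it ran from 0.34 to 0.71 and its adjusted p from 0.00889 to 0.345. The call was lost without replicate b or c of either strain at 0 min, without a or b of YSS37 at 60 min, and without any 1 of the YSS89 arrays at 60 min (0.41 to 0.54, adjusted p = 0.0539 to 0.111).

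The log2 ratio of the SHM1 signal to the SHM2 signal on the same array was followed over time within each strain, since the level of a ratio between different probe sets cannot be read. Set to 0 at 0 min, it averaged 0.37 at 20 min, 0.92 at 30 min, 0.69 at 40 min and 1.80 ± 0.16 (SD, n = 3) at 60 min in YSS89. All 3 arrays at each of these times lay above the 3 arrays at 0 min (two-sided exact permutation p = 0.1 each, the smallest that 3 arrays against 3 allow). In YSS37 the ratio averaged -0.38 at 30 min (exact permutation p = 0.2) and 0.04 ± 0.28 at 60 min (p = 1), and both groups overlapped the 0 min arrays. The signals of the mitochondrial and the cytosolic form thus changed unequally in YSS89, by 1.65 to 1.97 on the 3 arrays at 60 min. The SDs given cover the 60 min arrays alone, and the 0 min arrays had an SD of 0.07 in YSS89 and 0.31 in YSS37.

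**Figure D3:**
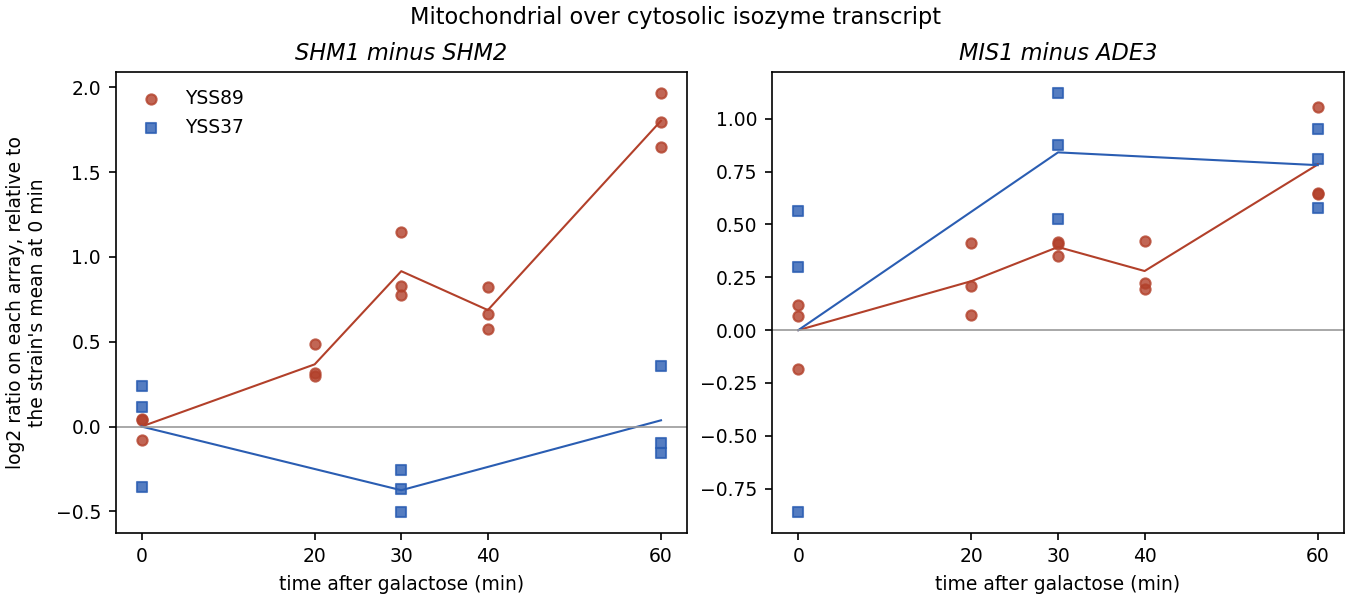
Log2 ratio of the mitochondrial over the cytosolic isozyme signal on each array (vertical axis), set to the mean of the same strain at 0 min, against time after galactose (horizontal axis, min), for SHM1 over SHM2 (left) and MIS1 over ADE3 (right); circles are YSS89, squares YSS37, lines join means. The SHM1 over SHM2 ratio reaches 1.65 to 1.97 in YSS89 at 60 min and -0.15 to 0.36 in YSS37, and the MIS1 over ADE3 ratio 0.64 to 1.06 in YSS89 and 0.58 to 0.95 in YSS37, with 1 low YSS37 array at 0 min.

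MIS1, for the mitochondrial C1-tetrahydrofolate synthase, was the gene of the 8 that rose in both strains at 60 min. It read 137, 161 and 136 in YSS89 at 0 min, 137, 129.9 and 153 at 20 min, 161, 183 and 187 at 30 min, 205, 194 and 238 at 40 min and 266, 264 and 315 at 60 min. In YSS37 it read 39.0, 93.9 and 135 at 0 min, 146, 117 and 186 at 30 min and 165, 174 and 145 at 60 min. The 60 min arrays of YSS89 were the highest of the series and overlapped no other group. In YSS37 the 3 arrays at 0 min ranged over 3-fold, with replicate a the lowest. MIS1 rose by 1.07 in YSS89 at 60 min (SE 0.25, 2.10-fold, adjusted p = 0.0016) and by 0.70 at 40 min (adjusted p = 0.0263). In YSS37 it rose by 0.98 at 60 min (SE 0.25, 1.97-fold, adjusted p = 0.00334) and by 0.86 at 30 min (adjusted p = 0.0133). Without replicate a of YSS37 at 0 min these changes were 0.54 (adjusted p = 0.0165) and 0.42 (adjusted p = 0.0788), and the call at 30 min was also lost without replicate c of YSS37 at 30 min (0.69, adjusted p = 0.0786). Both YSS37 calls were lost with only the groups compared in the fit. The YSS89 call at 60 min was also lost in some other settings. The call at 40 min in YSS89 was lost in 8 of 18 other settings, among them without replicate a (0.66, adjusted p = 0.0714) or c (0.64, adjusted p = 0.0758) at 0 min and without replicate c at 40 min (0.61, adjusted p = 0.0915). The responses at 60 min were not called different (0.09, 95% interval -0.63 to 0.82, adjusted p = 0.895), and without replicate a of YSS37 at 0 min their difference was 0.53 (adjusted p = 0.124).

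ADE3, for the cytosolic C1-tetrahydrofolate synthase, kept within a narrow range. Its signal in YSS89 was 318, 396 and 374 at 0 min, 296, 312 and 290.3 at 20 min, 308, 341 and 374 at 30 min, 461, 417 and 441 at 40 min and 423, 428 and 385 at 60 min. In YSS37 it was 386, 371 and 417 at 0 min, 351, 395 and 391 at 30 min and 387, 470.4 and 439.6 at 60 min. The 20 min arrays of YSS89 gave the lowest group mean and its 40 min arrays the highest. The 60 and 0 min arrays of YSS89 did not overlap after normalization, though they did as deposited. ADE3 rose by 0.42 at 40 min (SE 0.11, adjusted p = 0.00369) and by 0.29 at 60 min in YSS89 (adjusted p = 0.0371). The call at 60 min was lost in 6 of 18 other settings, among them without replicate a of YSS89 at 0 min (0.19, adjusted p = 0.195), without replicate a at 60 min (0.27, adjusted p = 0.0903) and without replicate b at 60 min (0.26, adjusted p = 0.106). YSS37 gave 0.20 at 60 min (95% interval -0.03 to 0.42, adjusted p = 0.154). The log2 ratio of MIS1 to ADE3, set to 0 at 0 min, averaged 0.78 ± 0.24 in YSS89 and 0.78 ± 0.19 in YSS37 at 60 min, and in both strains the 3 arrays lay above those at 0 min (exact permutation p = 0.1 each). These SDs cover the 60 min arrays alone, and the 0 min arrays had an SD of 0.16 in YSS89 and 0.76 in YSS37. Without replicate a of YSS37 at 0 min the YSS37 value was 0.35.

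MTD1 encodes the cytosolic NAD-dependent methylenetetrahydrofolate dehydrogenase. Its signal in YSS89 was 72.1, 59.0 and 69.6 at 0 min, 57.4, 48.8 and 57.3 at 20 min, 54.0, 43.9 and 44.4 at 30 min, 54.7, 49.7 and 58.9 at 40 min and 44.7, 40.5 and 48.2 at 60 min. In YSS37 it was 34.2, 37.2 and 42.5 at 0 min, 46.5, 50.0 and 41.0 at 30 min and 47.9, 45.5 and 54.6 at 60 min. The group of YSS89 at 0 min was the highest, and all 3 arrays at 60 min lay below it. MTD1 fell by 0.49 in YSS89 at 60 min (SE 0.12, 1.41-fold lower, adjusted p = 0.00304), while the difference in YSS37 was 0.25 (95% interval -0.01 to 0.50, adjusted p = 0.12). The responses differed by -0.74 at 60 min (SE 0.18, adjusted p = 0.00874). At 30 min MTD1 also passed in YSS89 (-0.33, adjusted p = 0.0337) and in the difference of responses (-0.51, adjusted p = 0.047), but these calls were lost in 7 of 18 and 13 of 23 other settings. Leaving out replicate a or c of YSS89 at 0 min, or b or c at 30 min, lost both calls (-0.33 to -0.26 and -0.51 to -0.44). The second was also lost without replicate a (-0.46) or b (-0.51) of YSS37 at 0 min and without replicate a (-0.55) or b (-0.42) of YSS37 at 30 min.

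The intermediate times in YSS89 placed most of the called changes after 20 min. At 30 min 6 of the 8 genes passed, with SHM1 higher and SHM2, GCV1, GCV2, GCV3 and MTD1 lower, where 46% of all genes did (22.4% higher and 23.6% lower). At 40 min 6 of the 8 passed, with SHM1, ADE3 and MIS1 higher and GCV1, GCV2 and GCV3 lower, where 45.4% of all genes did (23.9% higher and 21.5% lower). GCV1 was down by 0.75 at 30 min (adjusted p = 0.00124) and by 0.76 at 40 min (adjusted p = 0.00113). GCV2 showed -0.73 (adjusted p = 0.00156) and -0.68 (adjusted p = 0.00268) at these times, and GCV3 showed -0.92 (adjusted p = 9.91e-06) and -1.32 (adjusted p = 9.29e-08). The difference of responses at 30 min passed for 5 of the 8 genes, all lower, where 17.7% of all genes passed, 6.72% higher and 11% lower. It was -0.94 for SHM2 (adjusted p = 0.000715), -0.88 for GCV1 (adjusted p = 0.015), -1.01 for GCV2 (adjusted p = 0.00701) and -1.13 for GCV3 (adjusted p = 0.00028). With median centring SHM1 (0.57), SHM2 and GCV2 passed there, and GCV1 (-0.64), GCV3 (-0.42) and MTD1 (-0.46) did not.

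Before galactose the glycine cleavage genes were already higher in YSS89 than in YSS37. At 0 min 6 of the 8 genes were higher in YSS89 and none lower, where 27.9% of all genes passed, 17.8% higher and 10.2% lower. GCV3 averaged 1461 ± 34.0 in YSS89 and 814 ± 138 in YSS37 (SD, n = 3 each), a log2 difference of 1.33 (SE 0.13, adjusted p = 1.79e-06). GCV1 averaged 394 ± 54.0 in YSS89 and 229.8 ± 56.3 in YSS37, a difference of 0.85 (adjusted p = 0.000821). GCV2 averaged 356 ± 42.6 in YSS89 and 213 ± 18.7 in YSS37, a difference of 0.77 (adjusted p = 0.00197). For these 3 genes no array of one strain overlapped the other strain's. SHM2 (0.42, adjusted p = 0.0118), MTD1 (0.49, adjusted p = 0.00526) and MIS1 (0.71, adjusted p = 0.0374) passed as well, and MIS1 overlapped between the strains. SHM2 lost its call without replicate b of YSS37 (0.34, adjusted p = 0.0708). SHM1 gave -0.23 (95% interval -0.46 to 0.01) and ADE3 -0.07 (95% interval -0.30 to 0.15). Without the low replicate a of YSS37, MIS1 gave 0.27 (adjusted p = 0.259), and it lost its call without any 1 of the YSS89 arrays (0.61 to 0.76).

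The differences at 0 min depended on the processing. GCV3 kept its call in 17 of 17 other settings, with differences of 0.49 to 1.45. With median centring GCV1 gave 0.43 (adjusted p = 0.0506), GCV2 0.37 (adjusted p = 0.0924), SHM2 0.05 (adjusted p = 0.75) and MIS1 0.49 (adjusted p = 0.168), and SHM1 (-0.65) and ADE3 (-0.48) became lower in YSS89. With the hybridization round as a block GCV3 alone of the 8 passed (1.25, adjusted p = 0.0499), while GCV1 gave 1.35 (adjusted p = 0.0776) and GCV2 1.30 (adjusted p = 0.0868). With only replicate a of YSS89 at 0 min, leaving out the 2 arrays of low 25S signal, the differences were 1.12 for GCV1, 0.98 for GCV2, 1.35 for GCV3 and 0.63 for MTD1. These 4 passed, but the lone YSS89 array is assumed to vary like the arrays of other groups. IFH1 itself read 23.0, 21.7 and 34.6 in YSS89 and 15.9, 17.6 and 28.9 in YSS37 at that time, and these arrays overlapped.

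At 30 min no glycine cleavage gene passed between the strains, and at 60 min all 3 were lower in YSS89. SHM2 was the 1 gene of the 8 that passed at 30 min, 0.52 lower in YSS89 (adjusted p = 0.00148), where 43.4% of all genes passed, 23.4% higher and 20% lower. GCV1 gave -0.03 (95% interval -0.38 to 0.33), GCV2 -0.24 (95% interval -0.59 to 0.12) and GCV3 0.20 (95% interval -0.07 to 0.47) then, with no overlap between the strains for GCV3. At 60 min 5 of the 8 passed, 1 higher and 4 lower in YSS89, where 27.9% of all genes passed, 16.5% higher and 11.4% lower. GCV1 averaged 91.0 ± 8.45 in YSS89 and 168 ± 19.2 in YSS37, a difference of -0.94 (SE 0.17, adjusted p = 0.000506). GCV2 averaged 77.9 ± 14.2 in YSS89 and 163 ± 34.1 in YSS37, a difference of -1.12 (SE 0.17, adjusted p = 0.00011). SHM2 averaged 118 ± 4.85 in YSS89 and 213 ± 18.5 in YSS37, a difference of -0.85 (SE 0.12, adjusted p = 3.94e-05). None of these arrays overlapped between the strains. GCV3 was 0.39 lower (adjusted p = 0.0296), a call lost in 7 of 17 other settings, among them without any 1 of the YSS37 arrays or without replicate b of YSS89 (-0.41 to -0.29). MIS1 was 0.80 higher (adjusted p = 0.0207), a call lost in 5 of 17, among them without replicate c of YSS37 (0.73, adjusted p = 0.0656) or of YSS89 (0.71, adjusted p = 0.0795).

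**Figure D4:**
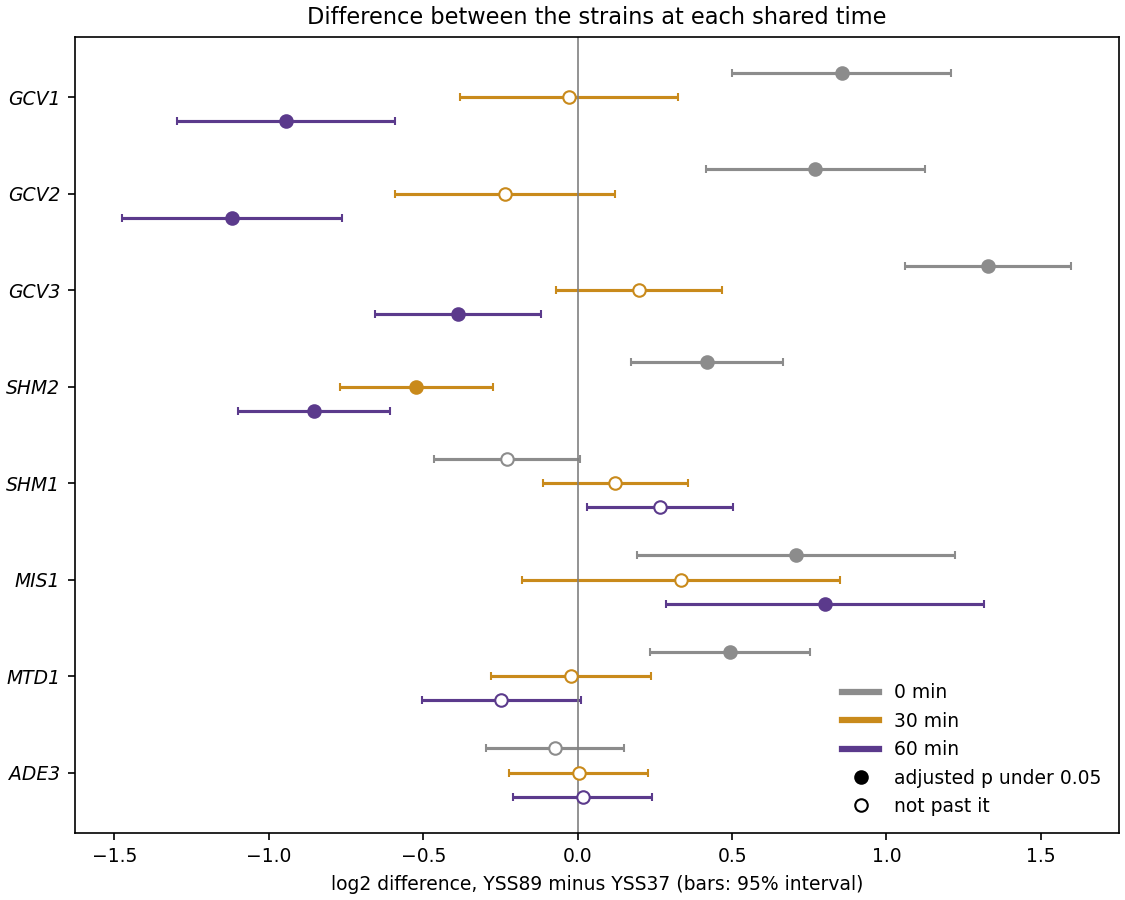
Difference between the strains on the log2 scale, YSS89 minus YSS37 (horizontal axis), for each gene (rows) at 0, 30 and 60 min, with 95% intervals; filled points passed the test. GCV1, GCV2, GCV3 and SHM2 lie above 0 at 0 min and below 0 at 60 min, SHM1 goes the other way without passing the test, and ADE3 lies near 0 at all 3 times.

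At 60 min the second hybridization round held 1 array of each strain, which allowed a comparison inside a round. There YSS89 minus YSS37 was -0.87 for GCV1, -0.97 for GCV2, -0.76 for SHM2, -0.40 for GCV3 and 0.84 for MIS1, and none of the 8 genes passed in this comparison of 1 array with 1, in which each is assumed to vary like the other arrays (adjusted p = 0.122, 0.0947, 0.0714, 0.38 and 0.377). The same round held replicate a of YSS89 at 0 and at 60 min. Between these 2 arrays the difference was -2.47 for GCV1, -2.45 for GCV2, -1.76 for GCV3, -1.22 for SHM2 and 0.70 for SHM1. These 5 genes were called only under the same assumption, so the values describe 1 array against 1.

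Across the 8 groups the 3 GCV genes and MIS1 covered a wide range and MTD1, ADE3 and SHM1 a narrow one. The span between the highest and lowest group mean was 2.18 on the log2 scale for GCV2, 2.12 for GCV1, 1.79 for GCV3 and 1.78 for MIS1, against a median of 0.84 over all genes. SHM2 spanned 1.13, SHM1 0.71, ADE3 0.59 and MTD1 0.49. For GCV1, GCV2, GCV3 and MTD1 the highest group was YSS89 at 0 min and the lowest YSS89 at 60 min, and for SHM1 it was the reverse. In the order of levels of GCV1, the groups from YSS37 at 60 min up to YSS37 at 30 min each overlapped their neighbour, a gap followed, and YSS89 at 20 and 0 min overlapped each other at the top. GCV2 had the same 3 tiers. GCV3 had gaps above YSS89 at 60 min, above YSS37 at 30 min, above YSS89 at 30 min and above YSS89 at 20 min. Its YSS37 arrays at 0 and 30 min overlapped. MTD1 groups overlapped from each level to the next over the whole order.

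Over the 8 group means GCV1 and GCV2 were each other's closest gene among the genes that span at least 1 on the log2 scale (Pearson r = 0.99, 8 groups). These correlations are descriptions over 2121 or 2122 genes, since groups share normalization and rounds. Next to GCV1 and GCV2 came PIR3, a cell wall protein gene (r = 0.97 for both), then IME2, a meiotic kinase gene, for GCV1 (r = 0.93) and ADE17, a purine synthesis gene, for GCV2 (r = 0.95). GCV3 came closest to IME2 (r = 0.92), PIR3 (r = 0.89) and GCV1 (r = 0.88). SHM2 came closest to RNP1 (r = 0.91), HAP4, a regulator of respiration genes (r = 0.91), and GCV2 (r = 0.90). MTD1 followed KDX1 (r = 0.91), NCA3 (r = 0.87) and GCV3 (r = 0.82). SHM1 followed FRS1, a phenylalanyl-tRNA synthetase gene (r = 0.95), ERG12, a mevalonate kinase gene (r = 0.95), and YNCL0038W (r = 0.95). ADE3 followed OPT1 (r = 0.97), FUI1, a uridine permease gene (r = 0.93), and SOK2 (r = 0.91). MIS1 followed KEL3 (r = 0.99), ASP1, a cytosolic asparaginase gene (r = 0.99), and PSF3, a DNA replication gene (r = 0.98). Between members, SHM1 ran against GCV1 (r = -0.86), GCV2 (r = -0.86) and GCV3 (r = -0.85), and SHM2 ran with GCV1 (r = 0.85) and GCV2 (r = 0.90).

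Genes that feed serine and glycine into these reactions changed in both directions. Of 6 serine and glycine supply genes 3 rose and 2 fell in YSS89 at 60 min (median change 0.47, all genes 0.08), where 23.9% of all genes were called higher and 19.8% lower. In YSS37 2 rose and 1 fell (median 0.25, all genes 0.01), where 21.1% were called higher and 20.5% lower. The same shares and all-gene medians stand behind each list below. AGX1, for the alanine:glyoxylate aminotransferase that makes glycine, fell by 1.81 in YSS89 (adjusted p = 4.48e-09) and by 0.85 in YSS37 (adjusted p = 6.23e-05). GLY1, for the threonine aldolase that makes glycine, fell by 0.55 in YSS89 (adjusted p = 0.00303) and rose by 0.45 in YSS37 (adjusted p = 0.0124). The call of GLY1 was lost in 3 of 18 other settings in YSS89, among them those with the round as a block and without 0 min b and c (-0.73 to -0.14, adjusted p up to 0.618), and in 5 of 17 in YSS37, among them without replicate b or c at 0 min or a at 60 min (0.21 to 0.55, adjusted p up to 0.2). Its signal was 300.1 ± 19.3 at 60 min and 449 ± 82.0 at 0 min in YSS89, and 436 ± 50.0 at 60 min and 333 ± 44.3 at 0 min in YSS37. SER2, for the last enzyme of serine synthesis, rose by 0.83 in YSS89 (adjusted p = 0.00132), a call lost in 3 of 18 other settings (0.59 to 0.89), and by 1.52 in YSS37 (adjusted p = 2.46e-06). SER2 read 21.5 ± 8.30 in YSS37 at 0 min, within the range of the alpha-cell gene SAG1 (15.6 to 34.6), so the size of 1.52 is uncertain. SER1 passed in YSS89 (0.65, adjusted p = 0.0039). SER3 passed there too (adjusted p = 0.0261), but it read 15.4 ± 3.30 at 60 min and 8.43 ± 1.22 at 0 min. These lie within or near the range of MF(ALPHA)1, MF(ALPHA)2 and STE3 (1.1 to 12.5), so no size is given. The call of SER3 was lost in 7 of 17 other settings, among them without replicate b or c at 0 min or a or c at 60 min, and its close paralog SER33 could share its probes. Below, the range of the alpha-cell genes means that of MF(ALPHA)1, MF(ALPHA)2 and STE3, without the brighter SAG1.

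Several folate synthesis genes rose at 60 min and none fell. Of 8 such genes 5 rose and none fell in YSS89 at 60 min (median 0.46, all genes 0.08), where 23.9% of all genes were called higher and 19.8% lower. In YSS37 4 rose and none fell (median 0.39, all genes 0.01), where 21.1% were called higher and 20.5% lower. DFR1, the dihydrofolate reductase gene, rose by 0.71 in YSS89 (adjusted p = 7.22e-05) and by 1.08 in YSS37 (adjusted p = 6.5e-07). FOL1 rose by 0.52 in YSS89 (adjusted p = 0.00616) and by 0.72 in YSS37 (adjusted p = 0.000424), and MET7, the folylpolyglutamate synthase gene, rose by 0.48 in YSS89 (adjusted p = 0.00396) and by 0.54 in YSS37 (adjusted p = 0.00161). FOL2, the GTP cyclohydrolase gene, rose by 0.66 in YSS89 (adjusted p = 0.000391). At 0 min DFR1 read 15.3 ± 0.56 in YSS37 and 29.6 ± 5.77 in YSS89, and FOL1 read 28.3 ± 3.39 in YSS37. These lie within or near the range of the alpha-cell gene SAG1 (15.6 to 34.6), so the sizes that start from them are uncertain. Of the 4 genes for lipoate synthesis or attachment and for Lpd1 (median -0.43 in YSS89 and -0.47 in YSS37), LIP5 rose (0.42, adjusted p = 0.0231, a call lost in 6 of 18 other settings, among them without replicate a at 0 min or a or b at 60 min, with 0.30 to 0.69) and LPD1 fell in YSS89, and LPD1 alone passed in YSS37.

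Genes that use the folate-bound units changed unevenly. Of 6 methyl cycle genes 2 rose and 1 fell in YSS89 at 60 min (median -0.11), and 2 rose and 2 fell in YSS37 (median -0.05). MET6, the methionine synthase gene, fell by 1.80 in YSS89 (adjusted p = 3.7e-07) and by 0.51 in YSS37 (adjusted p = 0.0391). The YSS37 call was lost in 8 of 17 other settings (-0.80 to -0.27, adjusted p up to 0.261), among them without replicate a or b at 0 min or any 1 array at 60 min. MET13, a methylenetetrahydrofolate reductase gene, rose by 0.74 in YSS89 (adjusted p = 0.000467) and fell by 0.72 in YSS37 (adjusted p = 0.000566), with signals of 115 ± 13.1 at 60 min and 73.6 ± 3.59 at 0 min in YSS89, and of 70.2 ± 7.59 at 60 min and 121 ± 19.0 at 0 min in YSS37. Of 5 other folate-dependent genes 3 fell in YSS89 (median -0.45), all of purine synthesis. ADE17 fell (adjusted p = 1.49e-07) to 10.5 ± 1.47 at 60 min, against 87.6 ± 15.4 at 0 min, and no size is given because the 60 min level lies within the range of the alpha-cell genes. ADE16 gave -0.45 (adjusted p = 0.00317) and ADE8 gave -0.45 (adjusted p = 0.00405). The call of ADE8 was lost in 4 of 18 other settings, among them those with the round as a block and without YSS89 0 min b and c (-0.57 to -0.05, adjusted p up to 0.875). In YSS37 (median -0.47) ADE16 fell by 0.47 (adjusted p = 0.00209), and CDC21, the thymidylate synthase gene, rose by 0.73 (adjusted p = 0.0116), a call lost in 2 of 17 other settings, 1 of them without replicate a of YSS37 at 0 min (0.54 to 0.85). CDC21 read 32.0 ± 7.60 in YSS37 at 0 min, within the range of the alpha-cell gene SAG1 (15.6 to 34.6).

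**Figure D5:**
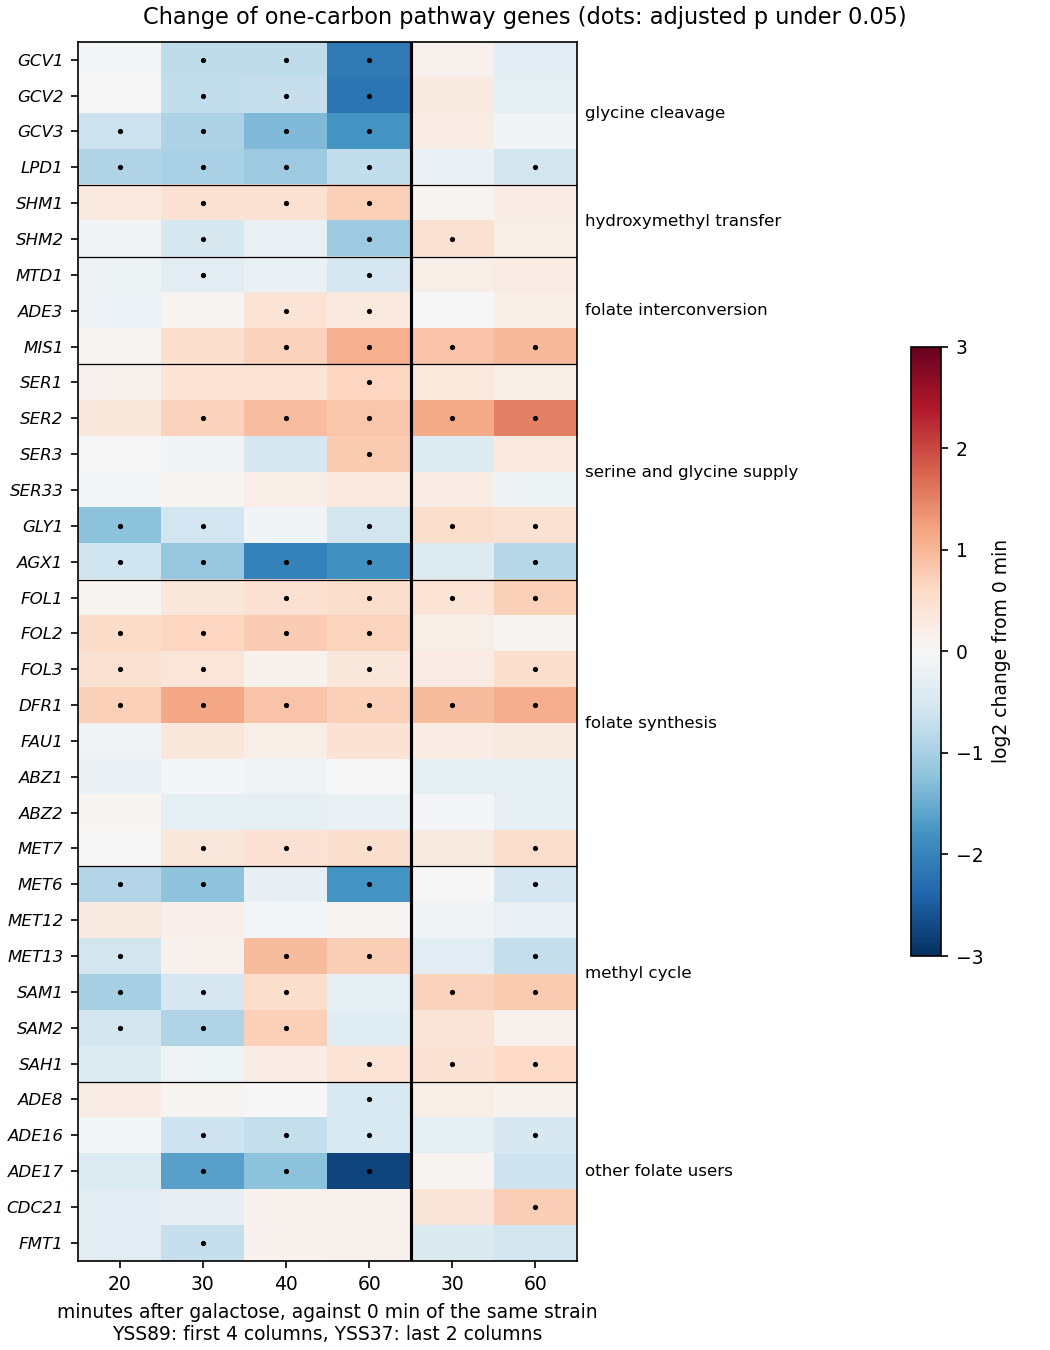
Log2 change from 0 min of the same strain (colour, blue lower and red higher) for genes of the one-carbon pathway (rows, grouped by role) at each time (columns in min, 4 of YSS89 and then 2 of YSS37); a dot marks changes that passed the test. The GCV rows are blue with a dot from 30 min on in YSS89, GCV3 already at 20 min, and carry no dot in YSS37, while DFR1 carries a dot in all 6 columns.

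Of 18 genes for de novo purine synthesis and its branches, 8 rose and 5 fell in YSS89 at 60 min (median 0.14), and 11 rose and 1 fell in YSS37 (median 0.54). The list shares ADE8, ADE16 and ADE17 with the folate-dependent genes. Before galactose 13 of the 18 were higher in YSS89 and none lower (median 0.55, all genes 0.04), where 17.8% of all genes were called higher and 10.2% lower. This comparison depends on the processing, with 657 genes higher and 1342 lower by median centring and 31 calls in all with the round as a block. ADE1 was among the 13 (0.95, adjusted p = 0.000135) and lost its call with the round as a block. GUA1 was too (1.11, adjusted p = 0.00251) and lost its call in 4 of 17 other settings (0.65 to 1.49). ADE4 also passed (adjusted p = 0.000885), but it read 15.8 ± 1.45 in YSS89 and 3.60 ± 4.68 in YSS37, where the YSS37 level lies within the range of the alpha-cell genes, so no size is given.

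Of the 3 regulators measured, BAS1 rose and another fell in each strain at 60 min, GCN4 in YSS89 and PHO2 in YSS37 (median -0.51 in YSS89 and -0.09 in YSS37). BAS1 read 54.0, 49.5 and 59.3 at 60 min and 34.8, 35.7 and 43.2 at 0 min in YSS89, against 35.2, 19.4 and 25.2 at 60 min and 13.9, 9.6 and 14.2 at 0 min in YSS37. It rose by 0.60 in YSS89 (adjusted p = 0.0228), a call lost in 8 of 18 other settings (0.50 to 0.69, adjusted p up to 0.271), among them without replicate a or b at 0 min or a or c at 60 min. BAS1 also passed as higher in YSS37 at 60 min (adjusted p = 0.00335) and in YSS89 against YSS37 at 0 min (adjusted p = 0.000226), with no size given because its YSS37 signals at 0 min lie within or near the range of the alpha-cell genes. PHO2, whose product acts with Bas1, read 0.7 to 16.4 over the 24 arrays, within or near that range. GCN4 passed as lower by 0.51 in YSS89 at 60 min (adjusted p = 0.000188), but its direction follows the scaling: the value was 0.17 (adjusted p = 0.196) on values as deposited and 0.27 (adjusted p = 0.0537) with median centring. FDH1, the formate dehydrogenase gene, was read by the brightest of its 3 probe sets, which paralogs could share, and gave 16.1, 7.3 and 11.1 at 60 min and 452, 1124 and 1093 at 0 min in YSS89, against 18.2, 6.9 and 13.4 at 60 min and 358, 209.7 and 184 at 0 min in YSS37. It passed as lower in YSS89 (adjusted p = 9.45e-10) and in YSS37 (adjusted p = 3.61e-07). Its 60 min signals overlapped between the strains and lie near those of the alpha-cell genes, so no size is given.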

How the data were processed

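Total RNA of 24 yeast cultures was measured on Affymetrix YG_S98 arrays. The deposited values are 1 linear intensity per probe set, which the authors had scaled so that the 2% trimmed mean of each array lies between 100.088 and 100.149, as the values themselves show; the summary algorithm is not given in the sources used here. Instrument records, with text entries only, gave rounds and chip lots. Groups were taken from the sample labels. Of 9335 probe sets, 60 controls, 2443 with no gene and 328 with several were left out of the tests, and the brightest probe set stood for each of 5656 genes. Intensities plus a pseudocount of 1.4, the 10th percentile, were taken to log2 and quantile normalized, since array medians ran from 4.72 to 5.15 on the log2 scale; a fold change on this scale understates changes of dim genes. Group means over all 24 arrays were fitted with limma 3.58.1 in R 4.3.3 in 11 comparisons, with Benjamini-Hochberg adjustment over all genes and a threshold of 0.05. Isozyme ratios were tested by two-sided exact permutation. On simulated data for YSS89 at 60 against 0 min the fit of 5656 genes recovered 89% of changes of 1 and 97% of changes of 2 on the log2 scale, with 12 false calls among 198. The simulation drew independent normal noise around equal group means and added 100 changes of each size after normalization. It held no round effect, so these figures do not cover errors from scaling or round. The number of arrays, 3 a group, limits the precision. Members, pathway lists and tests were chosen with earlier results of these data known. Named besides the 8 genes are LPD1, BAS1, PHO2, GCN4, FDH1 and IFH1, of each pathway list up to 3 called genes with the highest and 3 with the lowest change in 4 comparisons, and the 3 genes closest to each member. Alternatives changed the normalization, the pseudocount, the filter on dim genes, the probe set of a gene, the prior, the arrays in the fit, the round and the replicate letter. No sequences are shown.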

Additional observations from a re-analysis of the deposited data

Results flagged for a closer look

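The change after galactose differed between the strains by the interaction test for 5 of the 8 genes at 30 min, as YSS89 response minus YSS37 response on the log2 scale: SHM2 by -0.94, GCV1 by -0.88, GCV2 by -1.01, GCV3 by -1.13 and MTD1 by -0.51. At 60 min it differed for 6 genes, with SHM1 at 0.49, SHM2 at -1.27, GCV1 at -1.80, GCV2 at -1.89, GCV3 at -1.72 and MTD1 at -0.74. Of all genes 17.7% passed at 30 min (6.72% higher, 11% lower) and 13.9% at 60 min (5.45% higher, 8.42% lower). The calls of MTD1 at 30 min (adjusted p = 0.047) and SHM1 at 60 min (adjusted p = 0.0438) were lost in most other settings. With median centring 1 of the 8 genes passed as higher and 2 as lower at 30 min.

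Among the genes that supply serine and glycine, the response at 60 min differed for GLY1 (-0.996) and AGX1 (-0.96). Among folate synthesis and methyl cycle genes it differed for FOL2 (0.59), MET13 (1.45), MET6 (-1.29) and SAM1 (-1.07), which has a close paralog. For purine synthesis the differences were -2.15 for ADE17, whose YSS89 signals at 60 min lie within the range of silent genes, -0.54 for ADE8, -0.97 for ADE1, -0.64 for PRS5 and 1.37 for IMD2, also a gene with close paralogs. GCN4 gave -0.43, with a direction at 30 and 60 min that turned with the scaling. FDH1 gave -2.03, but its 60 min signals lie near the level of silent genes in both strains, so this value restates its difference of 2.03 at 0 min. By the interaction test FOL2, ADE8, GCN4 and FDH1 passed narrowly (adjusted p = 0.0388, 0.0346, 0.0378 and 0.0339). Groups of 3 arrays are too small for a check of single outlying arrays.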

How the results depend on the processing

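The calls of SHM1, SHM2, GCV1, GCV2 and GCV3 in YSS89 at 60 min held in all 18 alternatives run, with changes of 0.56 to 0.79, -1.27 to -1.04, -2.49 to -1.99, -2.48 to -2.07 and -1.89 to -1.36. Counts of the 8 genes called were less stable, and the cause was not tested unless named. On values as deposited 3 were called in YSS37 at 60 min and 0 in YSS89 at 20 min. With median centring 1 was called in YSS37 at 30 min, 3 at 60 min, 2 between the strains at 30 min and 3 in the difference of responses at 30 min. In YSS89 at 20 min 1 was called with median centring too, but as higher, where the main fit called 1 as lower. With only the groups compared in the fit, which leaves fewer arrays, 0 were called in YSS37 at 30 and at 60 min, 3 between the strains at 0 min and 3 in the difference of responses at 30 min. With the round as a block 1, 0 and 3 were called between the strains at 0, 30 and 60 min. Inside 1 round, with fewer arrays, 0 were called in YSS89 at 20 min, 5 at 60 min and 0 between the strains at 60 min. Leaving out 1 array gave 1 to 2 in YSS37 at 30 min (1 without replicate a at 0 min or c at 30 min), 1 to 2 in YSS37 at 60 min (2 without c at 0 min) and 1 to 2 in YSS89 at 20 min (2 without a at 0 min). The SHM1 to SHM2 ratio in YSS37 at 60 min then ran from -0.14 to 0.16. GCN4 turned direction on values as deposited (0.57, 0.32 and 0.17 in YSS89 at 30, 40 and 60 min, and 0.43 in the difference of responses at 30 min) and with median centring (0.42, 0.73, 0.42 and 0.27 in YSS89 at 20, 30, 40 and 60 min, -0.18 between the strains at 0 min, and 0.72 and 0.27 in the differences of responses at 30 and 60 min). SAM1 turned between the strains at 0 min with the round as a block (-0.19). Over all genes, calls between the strains at 0 min were 1004 higher and 575 lower, against 1732 and 405 as deposited and 657 and 1342 with median centring, which moved the median of all genes by 0.17 and -0.20. YSS89 at 20 min had 430 higher and 586 lower, against 291 and 889 as deposited (shift -0.11) and 600 and 420 with median centring, and at 30 min it had 1269 and 1332, against 834 and 1587 as deposited (shift -0.11). YSS37 at 30 min had 816 higher and 703 lower, against 673 and 1049 with median centring, and at 60 min 1195 and 1159, against 942 and 1504. The difference of responses at 30 min had 380 and 622, against 222 and 884 as deposited (shift -0.16) and 598 and 388 with median centring (shift 0.14). Calls of the difference of responses at 60 min were 308 higher and 476 lower, against 208 and 644 as deposited (shift -0.15) and 679 and 307 with median centring (shift 0.13). With the round as a block 274, 1618, 1694 and 1555 passed in YSS89 at 20, 30, 40 and 60 min (1016, 2601, 2565 and 2472 reported). The block left 31 (25 higher, 6 lower), 593 (242, 351) and 455 (213, 242) between the strains at 0, 30 and 60 min (1579, 2455 and 1577 reported), and 426 and 208 in the differences of responses at 30 and 60 min (1002 and 784 reported). Inside 1 round 172, 1066 (403 higher, 663 lower), 1202 and 1157 passed in YSS89 and 204 (79, 125) between the strains at 60 min. With only the groups compared 820 passed in YSS37 at 30 min (1519 reported), 502 in YSS89 at 20 min, 692 between the strains at 0 min, and 516 and 325 in the differences of responses. Without YSS89 0 min b and c, 323 passed at 20 min, 435 (330, 105) between the strains at 0 min, and 512 and 282 in the differences of responses. Leaving out 1 array moved a count by over 1.5 times for YSS89 at 20 min (654 without 0 min c, 656 without 20 min c) and for the difference of responses at 60 min (512 without YSS37 0 min b). Same-letter arrays deviated together in 5 of 9 pairs of YSS37 and 3 of 30 of YSS89 (r above 0.1). The median r was 0.13 for same letters and -0.08 for other letters in YSS37, and 0.01 and 0.005 in YSS89. Letters were not taken as pairs in the main fit, and a fit with pairs inside YSS37 alone was not run. The replicate block joined equal letters across both strains, so it did not model pairing within a strain. With this block the counts of the 8 genes stayed as reported, 8 in YSS89 at 60 min and 6 in the difference of responses.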
